A study of Mus musculus with 6 samples.

Results

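Ccl5, the chemokine named in the title of the series, and Ccr1 and Ccr3, genes of receptors that bind it, were followed in macrophages. The 3 genes were found by symbol among the 21936 genes of each expression table. RNA was sequenced from sorted macrophages in 3 libraries labelled CKO and 3 labelled WT. Per the labels, the CKO mice, a macrophage-specific knockout, were ALKBH5flox/flox with Lyz2-Cre and APOE-/-. That is loxP-flanked Alkbh5 on both alleles, Cre recombinase driven from the Lyz2 locus and no functional Apoe. The WT mice were ALKBH5flox/flox and APOE-/- without Cre. All animals were on a high-fat diet for 4 months, so diet and Apoe deficiency are shared by both groups. Lyz2 is active in macrophages, monocytes and neutrophils, and Cre expressed from it therefore acts across myeloid cells. Age, sex, the tissue that was sorted and the number of animals behind a library are not given in the sources used here, so a p-value here speaks of library-to-library spread, part of which may be technical.

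CCL5, also called RANTES, is a small secreted CC chemokine that draws T cells, monocytes, eosinophils and other leukocytes towards its source. It is made by activated T cells and natural killer cells, by platelets, and by macrophages after inflammatory or antiviral signals, and its gene is a late target of NF-kB and interferon regulatory factors. It binds G protein-coupled receptors with overlapping ligand sets: CCR1 is carried by monocytes, macrophages and neutrophils, and CCR3 is best known from eosinophils and basophils. ALKBH5, the enzyme targeted in these mice, removes the N6-methyladenosine mark from RNA.

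Values are FPKM, read counts scaled to gene length and to each library's total, as the authors deposited them. Totals of assigned reads, recovered from FPKM and gene length, ran from 15422154 to 17802617 in the libraries labelled CKO and from 16660206 to 18418903 in those labelled WT. Between libraries of a group the differences exceeded counting noise, with a chi-square per degree of freedom of 2.16 to 3.18, so no library was a copy of another. The check of the targeted gene went against its label: Alkbh5 read 9.15, 8.61 and 8.50 FPKM in the libraries labelled CKO, against 3.77, 3.95 and 3.88 FPKM in those labelled WT. Reads over the whole gene cannot show whether an exon was lost. Apoe, labelled null in both groups, averaged 95.0 ± 4.69 FPKM in the libraries labelled CKO and 1635 ± 29.3 in those labelled WT (SD, n = 3 each). Lyz2, from whose locus Cre is driven, averaged 6556 ± 211 FPKM in the libraries labelled CKO and 15116 ± 992 in those labelled WT (SD, n = 3 each). Every direction below therefore goes by the label of a library, since its genotype could not be checked. Of the 14 macrophage markers on the list 13 had a mean of 1 FPKM or more in both groups, all but Cd163, which averaged 0.869 FPKM in the libraries labelled CKO and 3.17 in those labelled WT. They differed in direction: Adgre1, the F4/80 antigen, averaged 778 ± 19.5 FPKM in the libraries labelled CKO and 222 ± 2.98 in those labelled WT, whereas Cd68 averaged 595 ± 10.7 in those labelled CKO and 1149 ± 19.4 in those labelled WT, and the mannose receptor Mrc1 1.88 ± 0.118 in those labelled CKO and 29.7 ± 0.853 in those labelled WT (SD, n = 3 each).

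Ccl5 lies on the minus strand of chromosome 11, from 83525778 to 83530518 on mm10. GENCODE M21 gives it the same span and 2 transcripts, a spliced mRNA of 532 bases in 3 exons, with 276 coding bases including the stop, and a second one of 668 bases with a retained intron. The length of 960 bases in the table is the union of the exons of both, so an FPKM per base of the spliced mRNA would be 1.80 times higher in every library. Ccr1 lies on the minus strand of chromosome 9, from 123962124 to 123968692, and Ccr3 on the plus strand of the same chromosome, from 124021972 to 124031689. Their start sites are 53.3 kb apart. Each has 1 annotated transcript of 2 exons, and no annotated gene overlaps any of the 3.

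The sequences that follow place the genes beside the N6-methyladenosine question of the series, which turns on the mRNA itself. GGACT is a common core of the sites where that mark is written. It was searched on the sense strand of the annotated transcripts, and it is in capitals below with 8 bases on either side. Ccl5 holds it once, in the 5′ untranslated region. Ccr1 holds it 3 times, each in the coding region.
Ccl5, transcript base 9: cttgcagaGGACTctgagaca
Ccr1, transcript base 522: gactatggGGACTccactcca
Ccr1, transcript base 568: ttggggctGGACTcctgcccc
Ccr1, transcript base 1084: accttcttGGACTaattttgc
Ccr3 holds it 4 times, at transcript bases 170 and 181 in the 5′ untranslated region, at 708 in the coding region and at 1323 in the 3′ untranslated region. Among protein-coding transcripts within 10% of the same length, 46.9% have at least 1 match like Ccl5, 58.5% at least 3 like Ccr1 and 47.1% at least 4 like Ccr3. Such counts are thus common at these lengths. A match is a string of letters, and no methylation was measured here.

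The window from 250 bases before to 50 bases after the start site is shown for the receptors only, since the promoter set used had none for Ccl5. NF-kB and AP-1 factors act at many inflammatory genes, and their motifs were looked for. The sequences are from RefSeq on GRCm38.p6, and capitals mark the matches to GGGANNNNCC, a loose kB motif, and to TGANTCA, the AP-1 motif, on either strand.
Ccr1, chr9:123968643-123968942, minus strand: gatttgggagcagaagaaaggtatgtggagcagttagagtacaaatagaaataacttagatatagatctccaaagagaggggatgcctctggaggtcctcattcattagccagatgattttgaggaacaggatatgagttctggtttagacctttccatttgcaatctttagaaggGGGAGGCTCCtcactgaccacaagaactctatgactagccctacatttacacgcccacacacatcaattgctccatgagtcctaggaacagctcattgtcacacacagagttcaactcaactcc
Ccr3, chr9:124021721-124022020, plus strand: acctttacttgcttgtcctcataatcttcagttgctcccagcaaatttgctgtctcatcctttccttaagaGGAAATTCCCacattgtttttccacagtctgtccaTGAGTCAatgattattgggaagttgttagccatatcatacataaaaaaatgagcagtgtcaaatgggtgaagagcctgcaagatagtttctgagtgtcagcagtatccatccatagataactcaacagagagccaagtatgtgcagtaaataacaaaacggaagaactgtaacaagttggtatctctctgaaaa
Both windows hold 1 kB match, at bases -74 to -65 in Ccr1 and at -179 to -170 in Ccr3, where it reads GGAAATTCCC. Such a match is held by 20.7% of the 32851 promoter windows from RefSeq. Ccr3 also has an AP-1 match at -144 to -138, which 7.81% of windows have. Neither window held GAAANNGAAA, an interferon regulatory factor motif found in 3.44% of windows, nor TATAAA, found in 13.6%. The motifs do not overlap one another in these windows. No binding of a factor was measured here, and a link between these matches and the levels of the genes was not tested.

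Ccl5, the ligand, was abundant in the libraries labelled CKO and scarce in those labelled WT. Its level was 2611, 2561 and 2797 FPKM in the libraries labelled CKO, against 3.90, 3.48 and 3.56 FPKM in those labelled WT. The groups did not overlap, and the lowest library labelled CKO stood far above the highest labelled WT. The ratio of means was 728. On the log2(FPKM + 1) scale the difference was 9.16 (SE 0.043, 95% confidence interval 9.06 to 9.25, limma adjusted p = 4.02e-17). By the size of that difference Ccl5 was the third among 9953 tested genes.

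In reads, Ccl5 had 42950, 37913 and 47794 in the libraries labelled CKO, against 69, 60 and 57 in those labelled WT. That made up 0.251%, 0.246% and 0.268% of all assigned reads in the libraries labelled CKO, and 0.000375%, 0.000334% and 0.000342% in those labelled WT. Ranked by FPKM, Ccl5 stood at positions 11, 12 and 11 of all genes in the libraries labelled CKO and at 7113, 7393 and 7359 in those labelled WT. One of the most abundant transcripts in the libraries labelled CKO was therefore a low one in those labelled WT. The spread among libraries labelled CKO was 4.67% of the mean, above the 0.483% that counting alone gives at this depth. Among libraries labelled WT it was 6.09%, under the 12.7% from counting about 60 reads a library, so the precision of the low level is set by depth.

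Ccr1, the receptor found on monocytes, macrophages and neutrophils, was also higher in the libraries labelled CKO. It read 24.8, 27.0 and 25.8 FPKM in the libraries labelled CKO, against 5.21, 5.13 and 4.22 FPKM in those labelled WT. The groups did not overlap, and WT replicate 3 was the lowest library. The ratio of means was 5.33, and the log2 difference was 2.20 (SE 0.066, 95% confidence interval 2.05 to 2.35, limma adjusted p = 6.10e-11). Its difference ranked 269th from the top among the tested genes. Reads ranged from 1180 to 1300 per library labelled CKO and from 199 to 272 per library labelled WT. Ccr1l1, a neighbouring gene similar to Ccr1 that could take some of its reads, had 2 reads over the libraries labelled CKO and 1 over those labelled WT.

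Ccr3, the eosinophil and basophil receptor, was near the limit of detection in both groups. It read 0.517, 0.495 and 0.412 FPKM in the libraries labelled CKO, against 0.133, 0.187 and 0.128 FPKM in those labelled WT. These values stood for 29, 25 and 24 reads in the libraries labelled CKO and for 8, 11 and 7 reads in those labelled WT. The groups did not overlap. Summed, there were 78 reads (95% Poisson interval 61.7 to 97.3) in the libraries labelled CKO and 26 (17.0 to 38.1) in those labelled WT, intervals that cover counting error only. Ccr3 did not reach 1 FPKM in any library and so was not among the genes of the main test. With no filter on low genes limma gave a log2(FPKM + 1) difference of 0.36 (adjusted p = 1.17e-04), and voom on the reads gave 1.62 (SE 0.35, adjusted p = 2.20e-04), an alternative chosen after the data were seen. The first of these figures understates the change of so low a gene, since 1 FPKM is added to values below 1.

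Of the 3 members 2 could be tested with the filter and both rose, against a background in which 81.1% of tested genes were called. In the libraries labelled CKO 30.5% were higher and 50.5% were lower. Values of all libraries labelled CKO above all those labelled WT were found for 31.2% of tested genes, and for 25.1% of genes with a read in any library, the set to which Ccr3 belongs. With no filter 23.3% of genes were called higher by limma and 24.1% by voom. After median-of-ratios scaling, which is centred on the typical gene, 40.8% were called higher and 38.9% lower, and Ccl5 and Ccr1 still rose by 9.32 and 2.37. A call alone is thus common here, and the sizes of the differences carry more. The median log2 difference over all tested genes was -0.14, and 95% of genes lay below 1.49, with Ccl5 at 9.16 and Ccr1 at 2.20. Exact permutation tests of 3 against 3 libraries gave p = 0.1 for each member, the smallest possible.

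**Figure D1:**
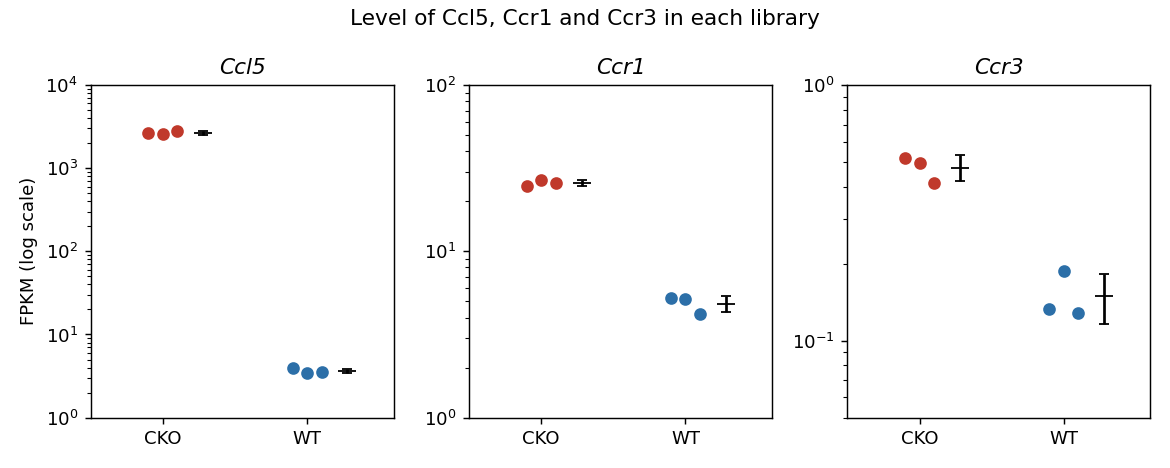
FPKM of Ccl5, Ccr1 and Ccr3 on log axes with a different range in each panel, 1 point per library labelled CKO or WT, with the mean and SD of 3 libraries as a black mark. In every panel the points labelled CKO lie above those labelled WT, by a ratio of means of 728 for Ccl5, 5.33 for Ccr1 and 3.18 for Ccr3.

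By FPKM as deposited, the order of the 3 genes differed between the groups. In the libraries labelled CKO Ccl5 stood far above Ccr1, and Ccr1 above Ccr3. In those labelled WT Ccr1 came first at 4.85 ± 0.554 FPKM, then Ccl5 at 3.65 ± 0.222 and Ccr3 at 0.150 ± 0.0328 (SD, n = 3), and Ccr1 was above Ccl5 in each of the 3 libraries. This order rests on the length of 960 bases used for Ccl5. Over the 532 bases of its spliced mRNA Ccl5 would read 1.80 times higher, above Ccr1 in each library labelled WT. Per FPKM of Ccr1 and Ccr3 together there were 103, 93.1 and 107 FPKM of Ccl5 in the libraries labelled CKO, against 0.730, 0.655 and 0.820 in those labelled WT. The mean log2 ratio was 6.66 ± 0.103 in the libraries labelled CKO and -0.45 ± 0.163 in those labelled WT, a difference of 7.11 (exact two-sided permutation p = 0.1, the smallest possible). With the spliced length for Ccl5 the ratios of both groups would be higher, and their difference in log2 unchanged. The sum covers these 2 receptors only, among those that bind CCL5, and the ratio concerns mRNA of ligand and receptor in the same sorted cells. Ccr1 was 48.0, 54.5 and 62.6 times the level of Ccr3 in the libraries labelled CKO, and 39.3, 27.4 and 32.8 times in those labelled WT, with the few reads of Ccr3 behind each ratio.

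The other ligands of CCR1 and CCR3 did not move as one. Of 7 on the list 4 were tested, with a median log2 difference of 0.20. Of these 2 rose and 2 fell, against 30.5% and 50.5% of all tested genes. Ccl7, a monocyte chemokine that binds both receptors, read 374, 332 and 361 FPKM in the libraries labelled CKO, against 1.56, 0.904 and 0.599 FPKM in those labelled WT. Like Ccl5 it was low in the libraries labelled WT, and its log2 difference was 7.49. In that group only WT replicate 1 reached 1 FPKM. Ccl7 thus passed the filter through the libraries labelled CKO, and its difference is given as a description. The count of ligands that rose includes it. Ccl3, a ligand of CCR1, was already abundant in the libraries labelled WT, with 180 ± 7.31 FPKM in those labelled CKO and 123 ± 6.70 in those labelled WT (log2 difference 0.54, SD over n = 3 each, limma adjusted p = 3.20e-07). Ccl6, a mouse ligand of CCR1, fell to 30.5 ± 1.05 FPKM in the libraries labelled CKO, against 117 ± 1.70 in those labelled WT (log2 difference -1.90, SD over n = 3 each, limma adjusted p = 7.14e-13). Ccl9, another mouse ligand of CCR1, averaged 151 ± 6.08 FPKM in the libraries labelled CKO and 166 ± 2.32 in those labelled WT, a difference of -0.14 that became 0.047 after median-of-ratios scaling (limma adjusted p = 0.00266 and 0.239). The eotaxins Ccl11 and Ccl24 and the mucosal chemokine Ccl28, ligands of CCR3, were below the filter, and Ccl11 had no read in any library. All ligands above the filter thus bind CCR1, and Ccl5 was the most abundant of them in the libraries labelled CKO and the second lowest, above Ccl7, in those labelled WT.

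**Figure D2:**
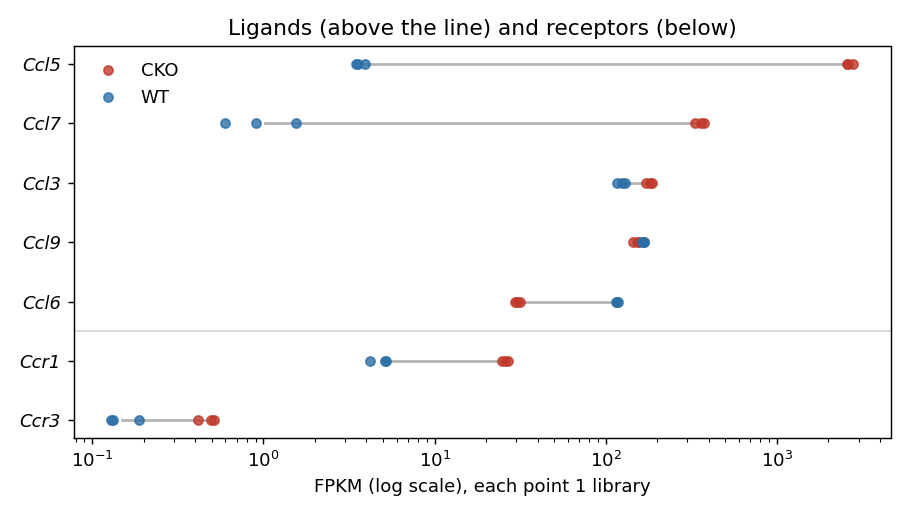
FPKM on a log axis of Ccl5, the 4 other tested ligands of CCR1 or CCR3, and the receptors Ccr1 and Ccr3, 1 point per library, with a grey line between the group means. Ccl5 averages 2656 FPKM in the libraries labelled CKO and 3.65 in those labelled WT, while Ccl9 lies between 144 and 169 FPKM in all 6 libraries.

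Genes listed as holding, binding or trimming CCL5 outside the cell were few. Of 8 genes on this list 3 were tested, 2 rose and 1 fell (30.5% and 50.5% over all tested genes), with a median of 1.23. Sdc4, a heparan sulphate proteoglycan that can carry CCL5, had 66.5, 67.3 and 64.3 FPKM in the libraries labelled CKO, against 23.3, 23.0 and 22.8 FPKM in those labelled WT (log2 difference 1.48, limma adjusted p = 4.43e-12). Sdc1, a related proteoglycan, averaged 48.6 ± 0.541 FPKM in the libraries labelled CKO and 20.1 ± 0.891 in those labelled WT (SD, n = 3 each). Cd44, a glycoprotein that can present chemokines, averaged 37.6 ± 0.179 FPKM in the libraries labelled CKO and 42.7 ± 1.78 in those labelled WT, and it was no longer called under median-of-ratios scaling (limma adjusted p = 7.66e-04 and 0.994). Dpp4, the peptidase that clips the first residues of CCL5, and the scavenging receptors Ackr1 and Ackr2 stayed under 1 FPKM in both group means.

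All 10 listed transcription factors known to act on the Ccl5 promoter were tested, with a median of 0.47. Of them 6 rose and 4 fell, against 30.5% and 50.5% of all tested genes. Irf7, the interferon regulatory factor of the antiviral response, read 522, 532 and 537 FPKM in the libraries labelled CKO, against 11.6, 11.2 and 12.0 FPKM in those labelled WT (log2 difference 5.40, limma adjusted p = 2.88e-16). Cebpb, a factor of inflammatory gene expression, averaged 241 ± 32.1 FPKM in the libraries labelled CKO and 55.6 ± 12.7 in those labelled WT (SD, n = 3 each). Rela, the p65 subunit of NF-kB, was higher by 0.70, while Jun, a part of AP-1, differed by -0.30 (limma adjusted p = 2.51e-09 and 7.22e-06). Of the 4 lower factors Irf3 and Jun were still called lower under median-of-ratios scaling. None of these mRNA levels measures the activity of a factor at the promoter.

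Downstream of the receptors the genes went both ways, some of them as far as Ccr1. All 17 signal transducers on the list were tested, with a median of 0.11. Of them 9 rose and 6 fell, against 30.5% and 50.5% of all tested genes. Median-of-ratios scaling gave 11 higher and 5 lower, against 40.8% and 38.9% of all. Gnai2, the inhibitory G protein subunit through which chemokine receptors signal, averaged 233 ± 3.50 FPKM in the libraries labelled CKO and 216 ± 4.16 in those labelled WT, a log2 difference of 0.11 that was not called after quantile normalization (limma adjusted p = 0.00385 and 0.172). Rac2 and Vav1, which carry the signal towards the actin skeleton, and the G protein subunit Gnb1 were higher by 0.44, 0.49 and 0.39 (limma adjusted p = 1.69e-07, 6.40e-08 and 4.65e-06). Dock2, Elmo1 and Rac1, of the same step, differed by -1.27, -0.69 and -0.38 (limma adjusted p = 5.48e-11, 1.49e-07 and 0.00201), and Rac1 was not called under median-of-ratios scaling. The phospholipase Plcb2, which G proteins switch on, read 4.00, 3.84 and 4.18 FPKM in the libraries labelled CKO, against 23.0, 21.3 and 21.9 FPKM in those labelled WT (log2 difference -2.20, limma adjusted p = 3.64e-12). Of 13 listed genes that shut the receptors off 11 were found and tested, with a median of -0.25. Among these 2 rose and 7 fell, with 4 higher and 5 lower under median-of-ratios scaling, to be set beside the same shares of all tested genes. Arrb1, an arrestin, averaged 23.9 ± 0.439 FPKM in the libraries labelled CKO and 43.8 ± 1.49 in those labelled WT (SD, n = 3 each). Rgs2 and Rgs18, which speed the shutdown of G proteins, differed by -2.49 and -1.57 (limma adjusted p = 6.05e-13 and 3.03e-11). The other arrestin Arrb2 and the receptor kinase Grk2 differed by -0.04 and -0.03 (limma adjusted p = 0.290 and 0.426), and turned to 0.14 and 0.16 under median-of-ratios scaling, where both were called higher. Rgs19, of the same kind as Rgs2, differed by -0.25, a call lost after the same scaling (limma adjusted p = 1.10e-04 and 0.136).

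**Figure D3:**
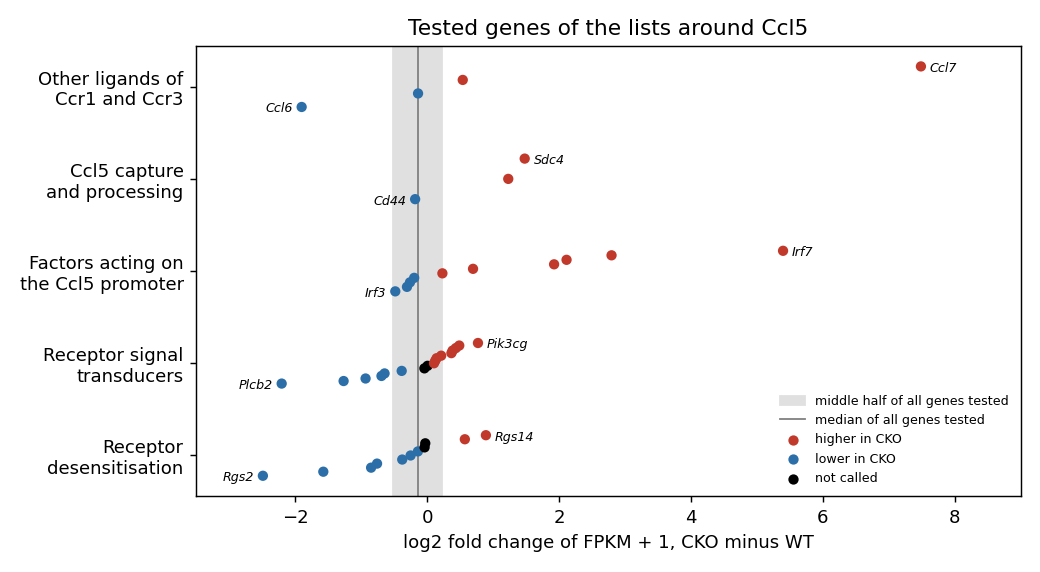
Log2 fold change of FPKM + 1, libraries labelled CKO minus those labelled WT, for each tested gene of the 5 lists, coloured by call, with the outermost genes named. The grey band spans the middle of all tested genes, -0.52 to 0.23, and Ccl7 at 7.49 and Irf7 at 5.40 lie furthest to the right.

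The genes whose levels over the 6 libraries were most like those of Ccl5, by Euclidean distance on log2(FPKM + 1), were Saa3, Ccl2, Acod1, Nos2 and Isg15, at 1.73, 3.46, 3.56, 3.95 and 4.07. Saa3, an acute-phase protein, was the nearest, with 4746, 4849 and 4989 FPKM in the libraries labelled CKO, against 5.71, 5.32 and 5.44 FPKM in those labelled WT. Saa3 was above Ccl5 in every one of the 6 libraries. Ccr1 had closer ones, the RNA helicase Mov10, N4bp1, Nfil3, a basic leucine zipper factor, the glycogen branching enzyme Gbe1 and the interferon-induced Ifi35, at distances of 0.38 to 0.53. Mov10, the nearest, averaged 26.2 ± 0.368 FPKM in the libraries labelled CKO and 5.34 ± 0.320 in those labelled WT (SD, n = 3 each). The measure takes in both the level of a gene and its difference between the groups.

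On chromosome 11 the nearest tested neighbour of Ccl5 was Heatr9, a HEAT repeat gene whose start site is 8.34 kb away. It read 3.11, 4.46 and 2.97 FPKM in the libraries labelled CKO, against 0, 0 and 0.0960 FPKM in those labelled WT. That is 100, 129 and 99 reads in the libraries labelled CKO, against 0, 0 and 3 in those labelled WT. It passed the filter only through the libraries labelled CKO, so its log2 difference of 2.11 had to be positive and is given as a description. The 11 tested genes with part of their span within 250 kb of Ccl5 had a median of -0.06. Among them 5 rose and 5 fell, against 30.5% and 50.5% of all tested genes. The 5 that rose include Heatr9, whose direction was fixed by the filter. Ccl9 and Ccl6 at 48.1 and 62.6 kb, and Ccl3 and Ccl4 at 119 and 132 kb, are the other CC chemokines there. Ccl4 averaged 74.0 ± 2.94 FPKM in the libraries labelled CKO and 46.1 ± 1.80 in those labelled WT (SD, n = 3 each). On the other side Taf15 at 57.4 kb, an RNA-binding protein gene, and Ap2b1, an adaptor of clathrin coats, differed by -0.23 and -0.13 (limma adjusted p = 0.00230 and 0.00883). After median-of-ratios scaling Taf15 was not called and Ap2b1 turned to 0.05 (adjusted p = 0.399 and 0.295).

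Around the receptors on chromosome 9 the neighbours were mixed too. Of 4 tested genes within 250 kb of Ccr1, 3 rose and 1 fell (30.5% and 50.5% over all tested genes). Ccr2, the monocyte receptor for CCL2, had its start site 133 kb from that of Ccr1 and 80.0 kb from that of Ccr3, and averaged 0.636 ± 0.0788 FPKM in the libraries labelled CKO, against 6.35 ± 0.311 in those labelled WT (log2 difference -2.17, SD over n = 3 each). It passed the filter only through the libraries labelled WT, so its fall, which is the one counted above, was fixed by the filter. Its direction was opposite to that of Ccr1. Fyco1 and Lztfl1, which act in vesicle transport and at the cilium, were higher by 0.27 and 0.25 (limma adjusted p = 6.49e-04 and 0.00233).

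**Figure D4:**
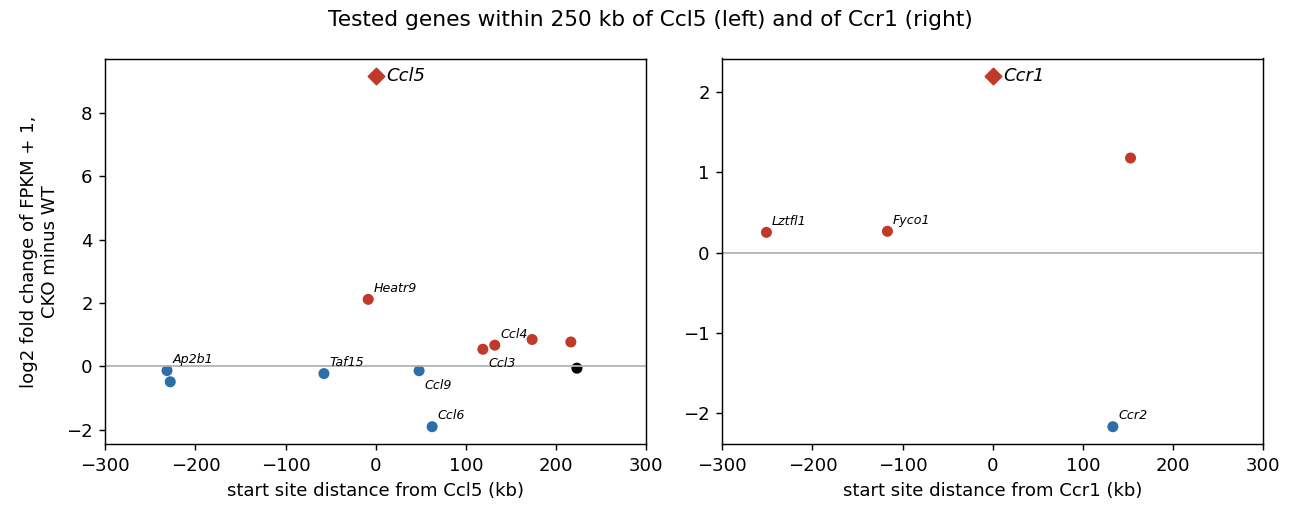
Log2 fold change of FPKM + 1, libraries labelled CKO minus those labelled WT, of tested genes against the distance of their start sites from that of Ccl5 (left) and Ccr1 (right), each shown as a diamond, with genes called higher in red, called lower in blue and not called in black. Heatr9 at 2.11 is the highest neighbour of Ccl5, and Ccr2 at -2.17 the lowest neighbour of Ccr1.

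Markers of other cells known for Ccl5 or its receptors were set beside these results. In bulk samples fewer cells of a type and less RNA per cell cannot be told apart. Many of these markers lie below the filter, or passed it only through the group where they were high, so each list is described over all its genes by how many had libraries of the groups that did not overlap. Among genes with a read in any library, all libraries labelled CKO were above all those labelled WT for 25.1%, and below them for 40.3%.

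For T and natural killer cells, 1 of 19 markers was higher in every library labelled CKO and 3 were lower. Their summed level was 2.16 to 2.66 FPKM in the libraries labelled CKO, against 6.14 to 6.47 FPKM in those labelled WT. Of the sum in the libraries labelled WT the largest part was Cd4, with 0.483 ± 0.0431 FPKM in the libraries labelled CKO and 3.94 ± 0.511 in those labelled WT (SD, n = 3 each). The other 18 stayed at or under 0.678 FPKM in the libraries labelled CKO and 0.985 in those labelled WT. The higher one was Gzmb, granzyme B, with 0.406, 0.361 and 0.548 FPKM in the libraries labelled CKO, against 0.189, 0.0388 and 0 FPKM in those labelled WT. Of 7 platelet markers 4 were lower in every library labelled CKO and 3 overlapped, among them Gp1bb, which had no read in any library. Their sum was 120 to 132 FPKM in the libraries labelled CKO and 184 to 202 in those labelled WT. Pf4, platelet factor 4, averaged 74.0 ± 6.08 FPKM in the libraries labelled CKO and 68.9 ± 1.61 in those labelled WT, and Ppbp 38.5 ± 3.16 in those labelled CKO and 101 ± 6.71 in those labelled WT (SD, n = 3 each). The part of T cells, natural killer cells or platelets in the Ccl5 difference was not tested.

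For Ccr3 the eosinophil, basophil and mast cell markers are the ones of interest. Of 14 on the list 9 were lower in every library labelled CKO and 5 overlapped. Of the 6 that passed the filter 5 averaged under 1 FPKM in the libraries labelled CKO and so passed only through those labelled WT. Their summed level over all 14 was 4.19 to 4.79 FPKM in the libraries labelled CKO, against 18.0 to 20.7 FPKM in those labelled WT. The eosinophil granule gene Prg2 averaged 1.47 ± 0.128 FPKM in the libraries labelled CKO and 6.53 ± 0.633 in those labelled WT, and Epx, eosinophil peroxidase, 0.0353 ± 0.0423 in those labelled CKO and 0.104 ± 0.0254 in those labelled WT (SD, n = 3 each). For Epx the groups overlapped, with 0, 1 and 4 reads in the libraries labelled CKO and 5, 4 and 6 in those labelled WT. The part of eosinophils, basophils or mast cells in the Ccr3 reads was not tested.

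For Ccr1, of 13 neutrophil markers 1 was higher in every library labelled CKO and 11 were lower, with a summed level of 120 to 131 FPKM in the libraries labelled CKO, against 663 to 954 FPKM in those labelled WT. The calprotectin gene S100a9 averaged 37.3 ± 5.10 FPKM in the libraries labelled CKO and 425 ± 85.0 in those labelled WT (SD, n = 3 each). Of the sum in the libraries labelled WT it was the largest part. The higher neutrophil marker was Mmp8, with 16.6 ± 1.66 FPKM in the libraries labelled CKO and 7.07 ± 1.35 in those labelled WT (SD, n = 3 each). Of 8 monocyte markers 5 were higher in every library labelled CKO and 2 were lower, and their sum was 167 to 189 FPKM in the libraries labelled CKO and 146 to 175 in those labelled WT, ranges that overlap. Ly6c2, which marks inflammatory monocytes, averaged 79.7 ± 9.01 FPKM in the libraries labelled CKO and 17.7 ± 2.11 in those labelled WT, and Chil3 averaged 38.8 ± 0.821 in those labelled CKO and 127 ± 12.5 in those labelled WT (SD, n = 3 each). Of the 14 macrophage markers 6 were higher in every library labelled CKO and 8 were lower, with a sum of 9683 to 10105 FPKM in the libraries labelled CKO and 17203 to 19116 in those labelled WT. Most of this sum in both groups was Lyz2, at a mean of 6556 FPKM in the libraries labelled CKO and 15116 in those labelled WT. The sum thus mainly gives the level of Lyz2, from whose locus Cre is driven. C1qb, a complement subunit made by tissue macrophages, averaged 202 ± 6.74 FPKM in the libraries labelled CKO and 528 ± 23.9 in those labelled WT (SD, n = 3 each). Among the 6 that were higher, Msr1 averaged 155 ± 1.43 FPKM in the libraries labelled CKO and 14.6 ± 0.832 in those labelled WT. Cd14, also higher, averaged 693 ± 14.7 in those labelled CKO and 189 ± 5.21 in those labelled WT (SD, n = 3 each).

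Of 8 dendritic cell markers 4 were higher in every library labelled CKO and 3 were lower. Ccr7, carried by migrating dendritic cells, averaged 21.1 ± 1.81 FPKM in the libraries labelled CKO and 0.742 ± 0.0497 in those labelled WT, whereas Clec9a averaged 0.109 ± 0.0209 in those labelled CKO and 0.615 ± 0.129 in those labelled WT (SD, n = 3 each). Of 8 B and plasma cell markers 1 was higher in every library labelled CKO and 4 were lower, the higher one being Sdc1, the proteoglycan named above. Of 9 endothelial and stromal markers 4 were higher and 3 were lower in the same sense. The part of neutrophils, monocytes or dendritic cells in the Ccl5 and Ccr1 differences was not tested.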

How the data were processed

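RNA-seq libraries of sorted mouse macrophages were grouped by their titles, 3 labelled CKO and 3 labelled WT. Per the labels' protocols they were made from TRIzol-extracted RNA with a stranded mRNA kit. The authors deposited 1 FPKM table per library, per the file headers. The submitters' processing notes name mm10, HISAT2 2.1.0, featureCounts 1.6.2, fastp 0.19.3, GATK 4.0.11.0, DESeq2 1.22.1, Cufflinks and StringTie 1.3.4d, without saying which made the tables. Whether counting used strand is not given in the sources used here. FPKM times gene length gave whole multiples of 1 step for 100% of values (tolerance 0.01 reads), so reads per gene were recovered. Tests by limma 3.58.1 in R 4.3.3 covered the 9953 genes that had 1 FPKM or more in 3 or more libraries and used lmFit and eBayes with trend on log2(FPKM + 1), with group as the only term. The Benjamini-Hochberg adjustment ran over all tested genes, and adjusted p-values under 0.05 were called. Fold changes understate low genes. The limma step was tested on simulated data in which far fewer genes changed than were called here. That test therefore cannot speak to the scaling or to the share of genes called in these data. Markers and gene lists, motif and neighbour searches used Python 3.11.15, pandas 2.3.3 and scipy 1.17.1, with transcripts and spans from GENCODE M21 and promoters from RefSeq.

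The members and lists were chosen with earlier results of these data known. By rule, genes could be named from each list if among the 4 tested ones (3 for markers) with the highest mean FPKM, with all tested ligands of CCR1 and CCR3, the 5 genes nearest to Ccl5 and to Ccr1 and the nearest tested neighbours. Not all of these are described. Ccl4, Epx, Gzmb, Irf3, Plcb2, Dock2, Elmo1, Rac1, Rgs2, Rgs18, Mrc1, C1qb, Cd163 and the untested genes of the lists were named after their values were seen. The same holds for Msr1, Cd14 and Mmp8. Other receptors of CCL5 are not reported here. Tried as alternatives were median-of-ratios and quantile scaling, pseudocounts of 0.1 and 0.5, a filter at a mean of 5 FPKM or none, a fit without trend, voom on the recovered reads, a block for the replicate number, and leaving out each library.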

Additional observations from a re-analysis of the deposited data

How the results depend on the processing

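Ccl5 and Ccr1 kept their direction and their call under all alternatives run, with log2 differences of 9.12 to 9.496 for Ccl5 and 2.12 to 2.41 for Ccr1. With 1 library left out they ran from 9.12 to 9.20 and from 2.12 to 2.25. The difference of Ccr3 was 0.36 as reported, 0.34 to 0.39 with 1 library left out, 0.59 and 1.21 with pseudocounts of 0.5 and 0.1, and, where it was tested, 0.36 with no filter and 1.62 by voom without filter. The larger values follow from adding less to FPKM under 1. The difference between the groups in the log2 ratio of Ccl5 to Ccr1 and Ccr3 stayed between 7.03 and 7.19. Of all tested genes 8069 were called, and 5387 to 9602 under the alternatives, the lowest among the 6402 genes with a mean of at least 5 FPKM and the highest with no filter. Median-of-ratios scaling moved the median log2 difference by 0.15, and called 4058 genes higher and 3874 lower, against 3038 and 5031 without it. Among 71 other genes it reversed Ccl9 (0.0474), Ap2b1 (0.0474), Arrb2 (0.145) and Grk2 (0.155), of which Arrb2 and Grk2 were called higher there. Same-numbered libraries did not deviate together (correlations 0.02, 0.01 and -0.04), so the numbers give no pairing. With the replicate number as a block 8041 genes were called, and Ccl5 and Ccr1 stayed at 9.16 and 2.20. Depth limits Ccr3 and the low level of Ccl5 in the libraries labelled WT.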
